A study of Mus musculus with 6 samples.

Results

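Epiblast-like cells (EpiLC) were compared with the mouse embryonic stem cells (mESC) they were made from while both were under CHIR99021 (CHIR) and PD0325901 (PD). The comparison used 2 of the 6 arrays of the series, chosen by title, namely the EpiLC array and the mESC array with CHIR and PD. Its question was what still differs between the states under both inhibitors. All cultures came from EB3 mESC. The mESC were grown in N2B27 medium with LIF and BMP4. EpiLC had been induced over 2 days in N2B27 with bFGF at 12 ng/ml and ActivinA at 20 ng/ml. Both received 3 µM CHIR and 1 µM PD for 24 hours, but whether those hours fell within or after the induction is not given in the labels. The other 4 arrays are the same states untreated or with 3 µM CHIR alone for 24 hours. The states differ in medium as well as in history, so the effects of these cannot be told apart. Each of the 6 groups was 1 array and nothing repeats it, so a difference between 2 arrays has no error and no p-value here. Precision is limited by that number of arrays.

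CHIR inhibits the kinase GSK3, which stabilises beta-catenin and so activates Wnt target genes. PD inhibits MEK, the kinase that activates ERK1/2, and FGF acts largely through that pathway in these cells. The pair of inhibitors is known for holding mESC in the naive state, the state of the pre-implantation epiblast, which rests on factors such as Esrrb, Tfcp2l1, Klf2 and Nanog. Activin, through Smad2/3, and FGF lead cells instead to a formative, early post-implantation state marked by Fgf5 and Otx2.

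The deposited values are linear intensities with a lowest value of 16 on every array, and median intensity over all probes was 63.36 on the mESC array and 60.55 on the EpiLC array with CHIR and PD. Lower quartiles were 34.7 and 32.49. Differences are log2 intensity of EpiLC minus that of mESC, averaged over the probes of a gene, for 22180 genes. Between the 2 arrays 729 genes were at least 2-fold higher in EpiLC (3.29% of genes) and 689 at least 2-fold lower (3.11%). At 4-fold or more these became 133 (0.6%) and 183 (0.825%). The median difference over all genes was -0.03, and 93.6% of genes differed by less than 2-fold. The same count gave 325 higher (1.47%) and 510 lower genes (2.3%) for the untreated pair, and 544 (2.45%) and 583 (2.63%) for the CHIR pair. Across genes, which are not independent replicates, the intensities of the states correlated with r = 0.941 under CHIR and PD, 0.964 untreated and 0.950 under CHIR. The counts depend on how low intensities are treated. Raising the lowest value from 16 to 64, by a constant added to all intensities, gave 406 higher and 398 lower genes. Moving it to 4 gave 1061 and 1175, so that 47.5% of the genes apart were higher, against 51.4% as deposited.

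**Figure D1:**
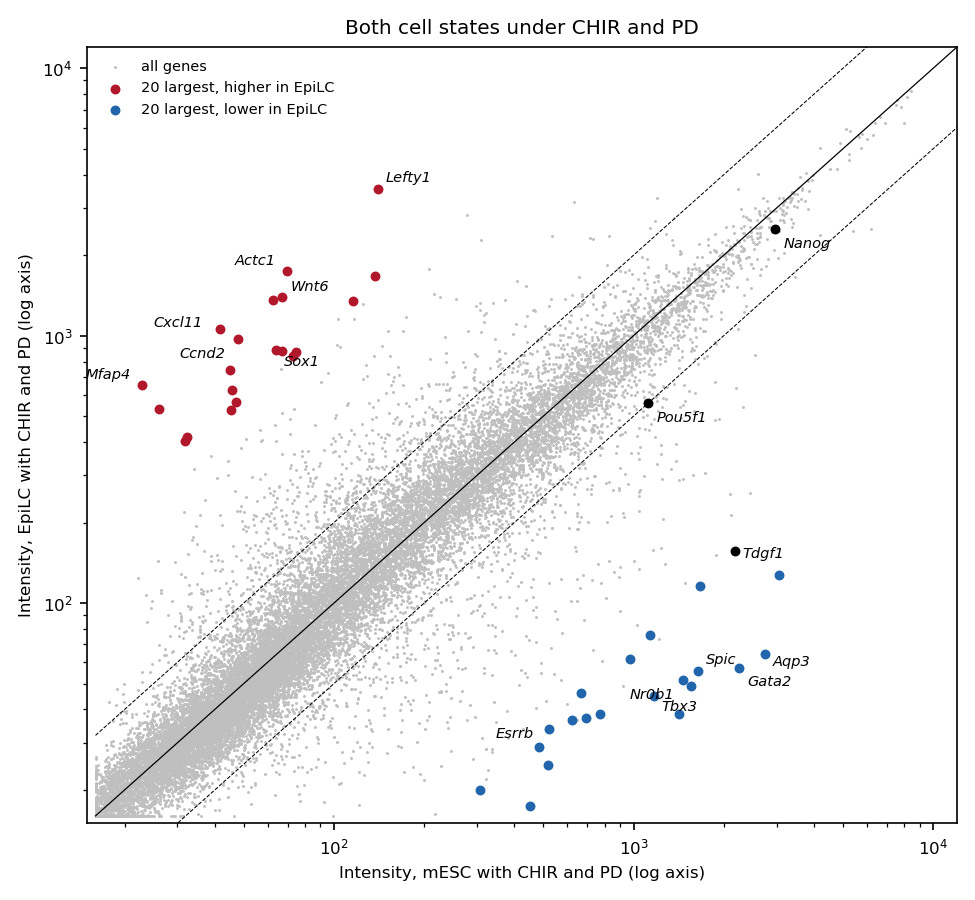
Intensity of each of 22180 genes on the mESC array (x) and the EpiLC array (y) with CHIR and PD, both axes logarithmic. The solid line marks equality and the dashed lines a 2-fold difference, and red and blue points are the 20 named genes with the largest differences each way. Nanog lies near the line, with intensities of 2969.5 and 2498.5, while Lefty1 and Aqp3 lie far from it in opposite directions.

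The 4 arrays without PD gave a test that the pair with CHIR and PD did not enter. A limma fit of cell state with CHIR as a covariate (2 arrays per state) found 533 genes that rose in EpiLC (2.4% of genes) and 676 that fell (3.05%), at a Benjamini-Hochberg adjusted p under 0.05, two-sided. Below, "rose" and "fell" refer to this fit, and "higher" and "lower" to single pairs of arrays. Of the 729 genes at least 2-fold higher under CHIR and PD, 307 (42.1%) also rose in the fit, and of the 689 lower genes 414 (60.1%) fell. A single gene went the other way, Cdx2. The fit has 1 residual degree of freedom, and the labels do not say that cultures were repeated. With 1 array per state and treatment, that residual is how far the CHIR response differs between the states. Its p-values, moderated over genes, thus do not measure a spread between repeated cultures. A gene whose state difference changed with CHIR can miss the threshold for that reason. Its total of 1209 genes was 572 with the lowest value moved to 64, 227 with it moved to 4, and 361 without the CHIR covariate.

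Naive pluripotency genes had the lowest median of the 25 gene lists described here. The lists and their members were chosen with earlier results of these data known. Their ranks and counts, here and below, are therefore descriptions and not tests. Under both inhibitors 16 of the 18 members, all measured, passed 2-fold in the lower direction, against 3.11% of all genes, and their median difference was -3.36. The medians were -3.43 in the untreated pair and -3.35 in the CHIR pair. In the 4 arrays without PD, 15 of the 18 fell, against 3.05% of all genes. Esrrb, an orphan nuclear receptor, was at intensities of 357, 467 and 524 in mESC untreated, with CHIR and with CHIR and PD, and at 22.5, 21.4 and 33.7 in EpiLC. The highest EpiLC value was thus under the lowest mESC value, and the last pair was apart by -3.96 (limma over the arrays without PD -4.22, SE 0.16, adjusted p = 0.000757).

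Tbx3, a T-box factor of the naive network, was at 574, 983 and 1165 in mESC and at 43.0, 45.2 and 44.9 in EpiLC. Its EpiLC level was nearly the same on the 3 arrays while the mESC level was highest under both inhibitors. The difference went from -3.74 untreated to -4.70. The EpiLC values of Tbx3 and of Esrrb lay under the array medians (63.46, 60.82 and 60.55), where the lowest value of 16 compresses a difference. Nr0b1, which encodes the orphan receptor Dax1, was at 1560, 1559 and 1467 in mESC and at 63.5, 23.4 and 51.4 in EpiLC, a difference of -4.84 under CHIR and PD. Klf4, Tcl1, Nr5a2 and Fbxo15 were lower by -3.47, -4.06, -3.85 and -3.90, each within 0.5 of its difference in the untreated pair, and all 4 fell in the fit. Tfcp2l1, a grainyhead-like factor, and Klf2, a Krüppel-like factor named after its values were seen, were higher on the EpiLC array with both inhibitors than on the other EpiLC arrays. Tfcp2l1 was at 747, 1213 and 1884 in mESC and at 39.0, 44.9 and 151 in EpiLC, a difference of -3.64 after -4.26 untreated. Klf2 was at 1454, 1540 and 1732 in mESC and at 117, 67.4 and 307.4 in EpiLC, and its difference went from -3.63 to -2.49. The 2 naive genes that were less than 2-fold apart were Dppa5a (-0.87, named after its value was seen) and Gbx2, the second at 260.8 in mESC and 365.7 in EpiLC (0.49).

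Nanog, counted here among the core genes, differed from the naive list. This homeobox gene was at 2118, 2180 and 2969.5 in mESC and at 709, 496 and 2498.5 in EpiLC. On the EpiLC array with both inhibitors it lay above the mESC values without PD, and the difference was -0.25, against -1.58 untreated and -2.13 with CHIR. In the 4 arrays without PD Nanog fell by 1.86 (SE 0.17, limma adjusted p = 0.00619).

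Among core pluripotency genes, 7 of the 11 measured passed 2-fold in favour of mESC under both inhibitors, against 3.11% of all genes. The median was -1.53, against -0.47 in the untreated pair. The 4 under 2-fold were Nanog and, named after their values were seen, Sall4 (-0.25), Zfp281 (-0.14) and Lin28a (-0.07). Tdgf1, which encodes the Nodal co-receptor Cripto, was at 2979, 2341 and 2171 in mESC and at 2873, 2354 and 156 in EpiLC. The states were level in the first 2 pairs (-0.05 and 0.01) and apart by -3.80 under CHIR and PD. Sox2 was at 1514, 1460 and 1584 in mESC and at 599, 106 and 302 in EpiLC. Its difference was -2.39 under both inhibitors, between those of the untreated pair (-1.34) and the CHIR pair (-3.78). Pou5f1, which encodes Oct4, was at 1342, 1234 and 1121 in mESC and at 1289.5, 881 and 558 in EpiLC, so that a difference of -0.06 untreated became -1.01. Utf1, a chromatin-associated factor, was at 287 in mESC and 91.7 in EpiLC under both inhibitors, after 3089 and 3091.5 in the untreated pair. Dppa2 and Gdf3 were lower by -2.84 and -2.58. In the fit over the arrays without PD 2 of the 11 genes fell, Nanog and Dppa4.

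**Figure D2:**
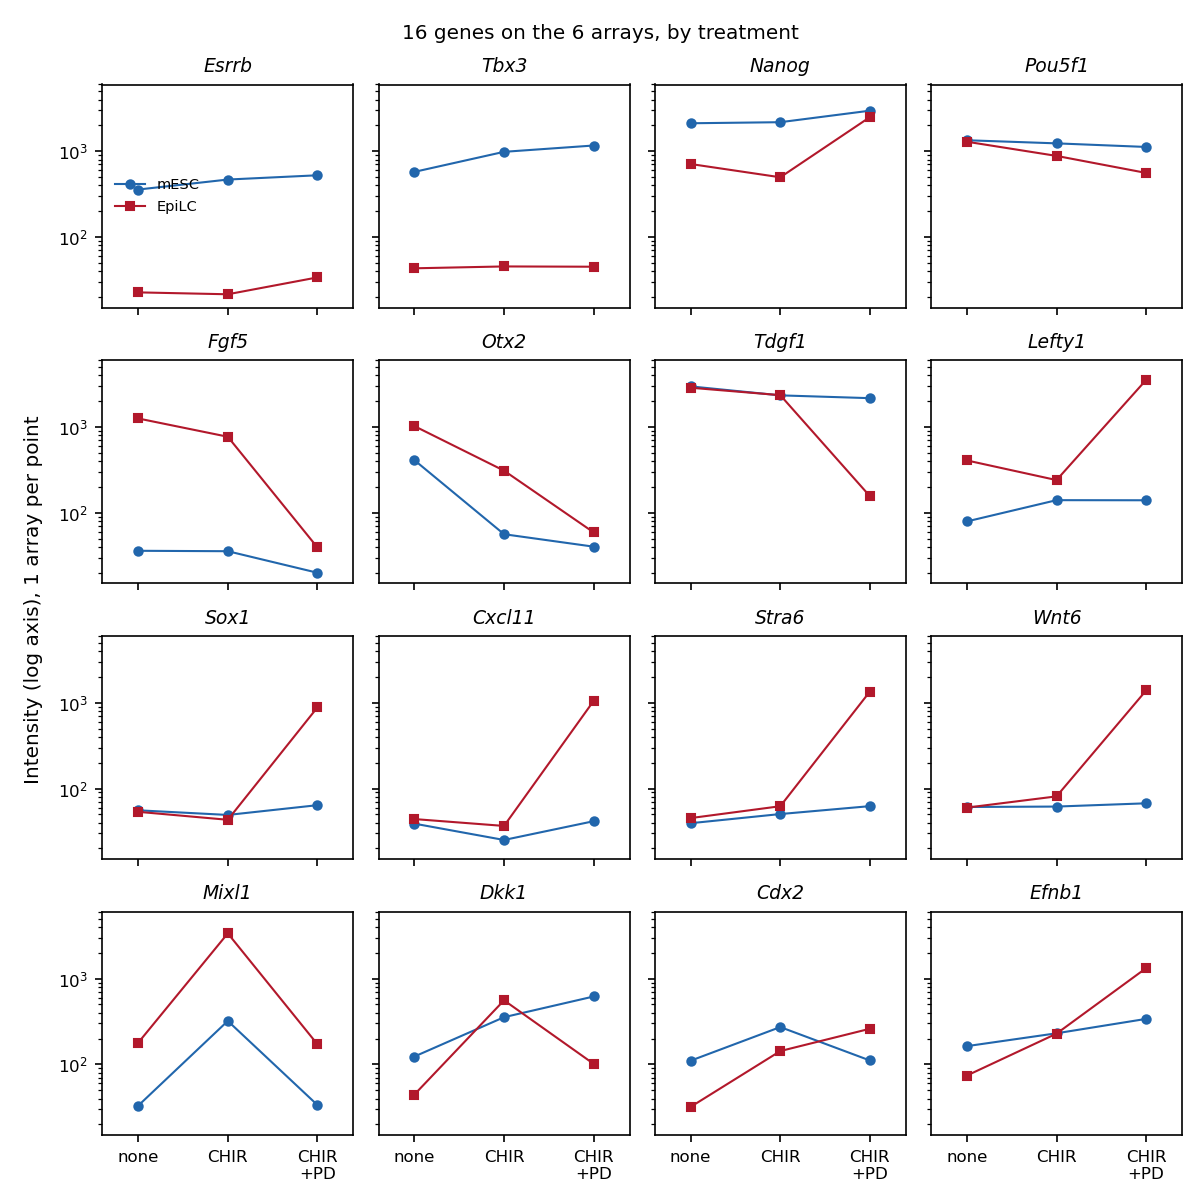
Intensity (log axis) of 16 genes in mESC (blue circles) and EpiLC (red squares) without treatment, with CHIR and with CHIR and PD, 1 array per point; lines join arrays of a state. Esrrb and Tbx3 stay apart under all 3 treatments, Nanog comes together at the last point, and Tdgf1, Sox1, Cxcl11, Stra6 and Wnt6 separate there.

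Of the EpiLC markers, Fgf5 and Otx2 were low on the EpiLC array with CHIR and PD, and Dnmt3b was level with mESC. Fgf5, the growth factor gene of the formative epiblast, was at 36.0, 35.6 and 19.9 in mESC and at 1258.5, 770.0 and 39.4 in EpiLC, where the last value is under the array median. The difference of 5.13 in the untreated pair was 0.98 under both inhibitors. Otx2, a homeobox gene of the formative and anterior epiblast, was at 40.2 in mESC and 59.0 in EpiLC, against 410.5 and 1025 untreated. Dnmt3b, a de novo DNA methyltransferase, was at 818 and 788, against 2327 and 4847 untreated. The array labelled EpiLC with CHIR and PD thus lacked Fgf5 and Otx2 at EpiLC levels as well as Esrrb, Tbx3 and Klf4 at mESC levels, and it is called EpiLC here by its label.

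Among 14 formative epiblast genes, all measured, 8 were at least 2-fold higher in EpiLC under both inhibitors (3.29% of all genes were) and 1 was lower, Etv5, with a median of 1.08 against 1.41 in the untreated pair. In the arrays without PD 9 of the 14 rose, against 2.4% of all genes. Wnt8a, a Wnt ligand of the posterior epiblast, was at 73.0, 138 and 45.3 in mESC and at 234, 404 and 525 in EpiLC, and its difference was larger under both inhibitors (3.54) than untreated (1.68). Lef1, which encodes a DNA-binding partner of beta-catenin, was at 159 and 700 under CHIR and PD (2.14), Sox4 at 61.7 and 218 (1.82) and Zic2 at 224 and 659 (1.56). All of these rose in the fit. Pou3f1, a POU factor, was at 71.8 and 146 (1.02), against 122 and 538 untreated (2.14). Cdh2, which encodes N-cadherin, was at 158 and 472 (1.58) and higher on both of its probes. Zic2 and Cdh2 had been less than 2-fold apart untreated (0.90 and 0.92).

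Primitive streak and mesoderm genes, which were high in EpiLC with CHIR alone, were mostly at the mESC level under both inhibitors. In the CHIR pair 12 of 13 measured genes were at least 2-fold higher (median 2.79), against 2.45% of all genes. In the pair with CHIR and PD 4 were (median 0.14), against 3.29% of all genes. In the 4 arrays without PD 3 of the 13 rose, against 2.4% of all genes. A difference that changed with CHIR, as in Msgn1 (0.34 untreated, 6.08 with CHIR), counts as residual in that fit. Msgn1, Tbx6 and Lhx1, transcription factor genes of nascent mesoderm, were at 51.7, 61.3 and 48.6 in EpiLC and at 56.1, 56.2 and 45.5 in mESC. Eomes, a T-box gene of the streak, was at 35.5 and 33.7, whereas untreated and CHIR-treated EpiLC had 345 and 390. The 4 genes that were at least 2-fold higher were Fgf8, Aplnr, Sp8 and Mixl1. Fgf8, a growth factor gene, was at 27.2, 41.3 and 26.1 in mESC and at 91.3, 286 and 533 in EpiLC, where the value under both inhibitors is the highest of the 6 (4.35). Mixl1, a homeobox gene, was at 33.6 and 172, close to the untreated 33.0 and 179. Aplnr, the apelin receptor gene, was at 38.9 and 356, and its ligand gene Apln at 73.0 and 842. Apln rose in the fit (4.60, SE 0.53, limma adjusted p = 0.0106) and Aplnr did not pass it (adjusted p = 0.339). Aplnr differed by -0.42 untreated and by 6.71 with CHIR, and that change is the residual of the fit.

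Activin and Nodal signalling is represented by secreted antagonists as well as ligands. Of 17 genes measured, 5 were at least 2-fold higher in EpiLC and 2 lower (median 0.36), against 3.29% and 3.11% of all genes. In the fit 3 rose, against 2.4% of all genes. Lefty1, an antagonist of Nodal and itself a target of Smad2/3, was at 79.2, 140 and 140 in mESC and at 407.5, 240.4 and 3548 in EpiLC. That array held by far its highest value, and the difference was 4.67 against 2.36 untreated and 0.78 with CHIR. Lefty2 was at 163 and 556 (1.77) and the ligand gene Nodal at 241 and 579 (1.26). Lefty2 rose in the fit (adjusted p = 0.00709 in limma), and Nodal missed the threshold (adjusted p = 0.0596). Fst, which encodes the Activin-binding protein follistatin, was at 117 and 1152 (3.30). On the lower side were Tdgf1, above, and Smad7, an inhibitory Smad, at 445.5 and 151 (-1.56).

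Among 15 Wnt target genes, 5 passed 2-fold in favour of EpiLC and 1 in favour of mESC (median 0.46), against 3.29% and 3.11% of all genes. In the arrays without PD 2 rose and 2 fell (2.4% and 3.05% of all genes). Nkd1, a feedback inhibitor that binds Dishevelled, was at 46.1, 74.1 and 44.9 in mESC and at 75.03, 344 and 742 in EpiLC (4.05 under both inhibitors). Sp5 was at 221 and 491 (1.15) and Tnfrsf19 at 198 and 487 (1.29). Axin2, a general feedback gene of the pathway chosen after its values were seen, was at 319 and 341 and so hardly differed between the states (0.10), while the untreated cultures had 182 and 165. Dkk1, which encodes a secreted Wnt antagonist, was the gene lower in EpiLC. It was at 124, 355 and 620 in mESC and at 44.5, 559 and 101 in EpiLC, that is, -2.61 under both inhibitors after 0.65 with CHIR. Cdx2, a caudal homeobox gene, ran the other way. It was at 110.5, 273 and 111 in mESC and at 32.0, 143 and 260.5 in EpiLC, so that a difference of -1.79 untreated and -0.93 with CHIR became 1.23. Cdx2 had fallen in the arrays without PD (adjusted p = 0.0287 in limma).

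The promoters of Dkk1, Cdx2 and Sox1 are given as examples. In these 3 genes the states stood in another order or distance under both inhibitors than under CHIR alone. That holds for many genes, as 396 were at least 2-fold higher and 268 lower under CHIR and PD but not in the CHIR pair. The 3 were picked by hand, so their motifs do not describe such genes. The promoters are RefSeq sequences of build GRCm38.p6, 250 bases before to 50 after the start of the gene, read along the gene's strand. Capitals mark CTTTGAA, a Tcf/Lef element, or ATTTGCAT, the octamer bound by Oct factors, on either strand. TCAAGGTCA, an element of Esrrb and Nr5a2, and the Klf element CACCC were searched as well and are not shown. The Tcf/Lef element is in 5.19% and the octamer in 1.87% of 16990 measured genes with a promoter in the table.
Dkk1: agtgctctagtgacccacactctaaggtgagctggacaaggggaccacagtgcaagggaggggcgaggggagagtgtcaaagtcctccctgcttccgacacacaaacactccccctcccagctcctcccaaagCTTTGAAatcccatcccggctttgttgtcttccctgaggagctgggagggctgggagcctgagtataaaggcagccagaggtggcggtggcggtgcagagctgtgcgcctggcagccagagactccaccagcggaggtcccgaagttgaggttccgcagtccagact
Cdx2: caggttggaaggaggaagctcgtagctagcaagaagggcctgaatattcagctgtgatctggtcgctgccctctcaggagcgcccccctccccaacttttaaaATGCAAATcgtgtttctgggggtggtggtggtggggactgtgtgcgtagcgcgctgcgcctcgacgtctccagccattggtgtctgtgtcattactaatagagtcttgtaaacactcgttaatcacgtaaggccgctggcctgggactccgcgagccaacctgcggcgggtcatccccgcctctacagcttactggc
Sox1: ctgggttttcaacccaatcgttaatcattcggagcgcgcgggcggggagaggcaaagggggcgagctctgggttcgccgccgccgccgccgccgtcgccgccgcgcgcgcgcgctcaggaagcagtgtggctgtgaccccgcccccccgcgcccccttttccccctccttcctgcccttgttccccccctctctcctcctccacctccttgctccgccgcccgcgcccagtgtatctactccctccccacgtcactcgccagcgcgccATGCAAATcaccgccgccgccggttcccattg
The Dkk1 window (chr19:30549447-30549746, minus strand) holds 1 Tcf/Lef element, the Cdx2 window (chr5:147307200-147307499, minus strand) 1 octamer, and the Sox1 window (chr8:12395269-12395568, plus strand) 1 octamer. A match is a description of these letters and not a bound site. A comparison of promoters between the higher and lower genes is void, because the table holds a promoter for 69.2% of the genes at least 4-fold higher and 79.2% of those at least 4-fold lower.

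Genes that ERK signalling induces were, by their summed intensity, lower in both states under both inhibitors than without treatment. The summed intensity of 17 such genes was 1971 in mESC and 1935 in EpiLC under CHIR and PD, against 5566 and 6118 untreated. Bright members weigh most in that sum, and not every gene was lower. Ier3, named after its values were seen, was at 117 in untreated EpiLC and at 125 in EpiLC under both inhibitors. Between the states 14 of the 17 differed by less than 2-fold (median 0.12), against 93.6% of all genes. In the fit 2 rose and 1 fell (2.4% and 3.05% of all genes). Etv1 was among the 14 only by the average of probes that disagreed. They were at 67.2 and 83.5 on the first (0.31) and 120.5 and 29.9 on the other (-2.01). Spry4, a feedback inhibitor of receptor signalling named after its values were seen, was at 36.2 and 22.3. The exceptions were Spry2, a relative of Spry4, at 290.3 and 68.6 (-2.08), Spred1, an inhibitor of Ras signalling, at 116 and 258 (1.15), and the Ets gene Etv5 (-1.03; -1.49 and -0.58 on its 2 probes). Dusp4, a phosphatase that acts on ERK, was at 51.5 and 101 (0.97).

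LIF and BMP4 were in the mESC medium, and genes of those pathways differed in unlike ways. Of 11 genes of the LIF-STAT3 list, 8 were at least 2-fold lower in EpiLC (median -1.28), against 3.11% of all genes. In the fit 7 of these 8 fell, against 3.05% of all genes. Klf4 and Gbx2 stand both in this list and in the naive list. The receptor gene Lifr had intensities of 342 and 66.5 in mESC and EpiLC (-2.36), and its partner Il6st of 1093 and 449 (-1.28). Bcl3, an atypical I-kappaB protein gene, was at 681 and 86.6 (-2.98). Socs3, a feedback inhibitor of the receptor, was at 120.0 and 44.0 (-1.45). Pim1, a kinase gene, was at 256.5, 320.5 and 327 in mESC and 244.5, 137 and 82.9 in EpiLC, level untreated and -1.98 apart under both inhibitors.

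In the BMP list 4 of 16 genes passed 2-fold in the lower direction and 1 in the other (median 0.26), against 7 and 1 without treatment. The shares of all genes were 3.11% and 3.29% under both inhibitors and 2.3% and 1.47% without treatment. In the fit 6 fell and 1 rose (3.05% and 2.4% of all genes). The gene Id1, an inhibitor of helix-loop-helix factors induced by BMP, was at 1480, 989 and 399 in mESC and at 57.3, 119 and 145 in EpiLC. The levels approached each other from both sides, and the difference went from -4.69 to -1.47. Id4 was at 198 and 88.5 (-1.16, against -2.69 untreated). Id2 was the exception, at 474 and 40.5, and its difference grew from -1.65 to -3.55. Bmp4 and Id3, chosen after their values were seen, were level under both inhibitors, Bmp4 at 200.2 and 285 (0.51) and Id3 at 192 and 190.3 (-0.01), after -2.93 and -2.99 in the untreated pair. Both fell in the fit over the arrays without PD.

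Among the 20 named genes with the largest positive differences (3.53 to 4.84 on the log2 scale), 7 were at least 2-fold higher in EpiLC in all 3 pairs, 5 in the pairs with CHIR and with CHIR and PD, 1 in the untreated pair and that with CHIR and PD, and 7 under CHIR and PD alone. The mESC value lay under the array median in 11 of the 20, where the lowest value of 16 compresses a difference, so their order is not read. The 7 genes of the last kind were Sox1, Cxcl11, Cxcl10, Stra6, Wnt6, Cda and Ephx3.

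Sox1, an early transcription factor gene of neural cells, was at 55.8, 49.2 and 64.01 in mESC and at 53.5, 43.2 and 885 in EpiLC. The first 5 values lay near the array medians, and the EpiLC array with both inhibitors stood alone (3.79). Nes, which encodes the intermediate filament nestin, was at 125 and 688 (2.46) and had been higher untreated as well (1.59), and Sox3 was at 66.4 and 144 (1.11). These 3 were the neuroectoderm genes at least 2-fold higher, against 3.29% of all genes. The other 7 of 10 were less than 2-fold apart, as were 93.6% of all genes, among them Pax6 at 122 and 82.3 (-0.57) and Zic1 at 51.1 and 61.1 (0.26). Hes5, a Notch target, was among them only by the average of probes that disagreed, at 39.55 and 113 on the brighter (1.51) and 32.8 and 31.5 on the other (-0.06). Foxb1, a forkhead gene of the neural tube, was at 45.8 and 627, and also higher with CHIR alone (47.6 and 302).

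The chemokine genes Cxcl11 and Cxcl10, which lie next to Cxcl9 and are known to be induced by interferon, were at 41.6 and 74.97 in mESC under both inhibitors and at 1055 and 870 in EpiLC. The other 5 arrays had values of 25.1 to 44.1 for Cxcl11 and 44.97 to 74.97 for Cxcl10. Of 16 genes of the chemokine and interferon list only these 2 and Irf1 (1.04) were at least 2-fold higher (3.29% of all genes). Cxcl9 was at 112 and 57.4 (-0.96). Stra6, the gene of the receptor that takes up retinol from its binding protein, was at 39.4, 50.4 and 62.4 in mESC and at 45.3, 62.2 and 1356 in EpiLC (4.44). In the retinoic acid list 4 of 12 genes passed 2-fold, each in favour of EpiLC (median 0.19), against 3.29% of all genes. Besides Stra6 these were Hoxb1 (31.8 and 403), the retinaldehyde reductase gene Dhrs3 (49.5 and 189) and Crabp2, which encodes a retinoic acid-binding protein (82.1 and 307.5). In the CHIR pair 5 of the 12 were at least 2-fold higher (2.45% of all genes), among them Hoxb1 (4.52) and Crabp2 (1.97). Cyp26a1, named after its values were seen, was 4.74 apart in the CHIR pair and level under both inhibitors (28.85 and 29.93). Rarb, a receptor gene induced by retinoic acid, was at 36.1 and 45.0. Wnt6, a Wnt ligand gene, was at 67.3 and 1396 (4.37), Cda, which encodes cytidine deaminase, at 137 and 1672 (3.60), and the epoxide hydrolase gene Ephx3 at 67.0 and 878 (3.71).

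Some genes of the cytoskeleton and matrix were also higher in EpiLC. Mfap4, the gene of a microfibril-associated glycoprotein, was at 42.8, 24.2 and 22.9 in mESC and at 125, 141 and 654 in EpiLC (4.84 under both inhibitors), and it rose in the fit (adjusted p = 0.0117 in limma). Actc1, cardiac alpha-actin, was at 69.6 and 1738, Tagln, the actin-binding protein transgelin, at 408.0 and 1607, and Col1a1 at 101 and 370.3. Vim, which encodes vimentin, was at 1196 and 3268 (1.17 and 1.73 on its 2 probes). Of the 13 genes of the fibroblast and mesenchyme list 3 were at least 2-fold higher (3.29% of all genes), namely Tagln, Col1a1 and Vim (median 0.49). On each of the 2 arrays 6 of the 13 exceeded the array median, which splits all probes evenly. Without Vim their summed intensity was 1355 in mESC and 3269 in EpiLC under both inhibitors, and 939.2 to 1682 on the other 4 arrays. Tagln, Col1a1 and Acta2, smooth muscle actin (427 and 845, 0.98), carried this sum, and the other 9 genes summed to 419 and 447. Col1a2, Col3a1 and Thy1, further markers of fibroblasts, were at 53.3, 73.4 and 44.6 in EpiLC and at 51.6, 72.4 and 67.2 in mESC. The part of other cells in these differences was not tested, and in such cultures fewer cells of a type and less RNA per cell cannot be told apart.

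The genes with the largest negative differences were, with 1 exception, lower in EpiLC under every treatment. Of the 20 named on this side (3.85 to 5.41 below mESC on the log2 scale), 19 were at least 2-fold lower in all 3 pairs and 19 fell in the fit. The EpiLC value was under the array median in 15 of the 20. Spic, which encodes an Ets factor, was the exception in both counts. It was at 785, 91.5 and 1638 in mESC and at 72.4, 77.1 and 55.9 in EpiLC, so that the states differed by -0.25 under CHIR and -4.87 under CHIR and PD. Aqp3, a channel for water and glycerol, was at 496, 1334 and 2737.5 in mESC and at 58.8, 70.0 and 64.5 in EpiLC, and Gata2, a zinc finger factor gene, at 658, 1078 and 2239 in mESC and 50.5, 44.8 and 57.3 in EpiLC. In both genes the EpiLC level stayed near or under the array medians (63.46, 60.82 and 60.55). The growing difference (-5.41 and -5.29 under both inhibitors) came with the mESC level. Jam2, a junctional adhesion molecule gene, differed by -5.00, -5.06 and -4.99 in the 3 pairs. Pde8a, a cAMP phosphodiesterase gene, was at 3060 and 128 (-4.58), and Calcoco2, which encodes an autophagy receptor, at 1412 and 38.4 (-5.20).

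Cell adhesion genes held members that differed in either direction. In the junction list 4 of 16 genes passed 2-fold in favour of EpiLC and 2 in favour of mESC (median 0.38). In the basement membrane and integrin list it was 0 and 3 of 17 (median 0.06). The shares of all genes were 3.29% and 3.11%. The connexin genes Gja1 and Gjb5 differed in opposite directions, Gja1 at 308 and 1250 (2.02) and Gjb5 at 245 and 27.9 (-3.13). Cldn3, a claudin gene, was at 242 and 624 (1.37) and Ocln, which encodes occludin, at 175.5 and 355.5 (1.02). Lama1, the alpha chain of an early embryonic laminin, was at 278 and 36.6 (-2.93), whereas Lama5 was at 458 and 852.5 (0.90). Nid1, which encodes the laminin-binding protein nidogen, was at 862 and 131 (-2.72) and fell in the fit (adjusted p = 0.00772 in limma), and its relative Nid2 was at 1476 and 654.5 (-1.17).

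Several trophoblast and germline factors were lower in EpiLC. Of 10 genes of the trophoblast and keratin list 4 passed 2-fold on this side, against 3.11% of all genes. These were Tfap2c (338 and 28.4), Ascl2 (292 and 26.1), Hand1 (442 and 52.9) and Tead4 (200 and 67.1). All 4 fell in the fit, against 3.05% of all genes. Cdx2 was the single higher gene, and Elf5 was near the median of both arrays (65.8 and 59.6). The 2 probes of Gata3 disagreed, with 61.4 and 56.5 on the first (-0.12) and 148.5 and 68.2 on the second (-1.12). In the germline list 5 of 11 genes were lower and 0 higher (median -0.64), against 3.11% and 3.29% of all genes. Of these 5, Dppa3 and Prdm14 also stand in the naive list and Tfap2c in the trophoblast list. The others were Dazl, an RNA-binding protein gene of germ cells (114 and 26.4), and Rhox5 (337.5 and 82.5). Among 8 DNA methylation enzymes 3 were at least 2-fold lower and 1 higher, against 3.11% and 3.29% of all genes. Tet2 (492.5 and 59.6), Tet1 (1389 and 339) and the methylation cofactor Dnmt3l (120 and 42.5) were lower, and Dnmt3a (213 and 503) was higher. The Dnmt3l difference was -1.49 under both inhibitors and -2.74 untreated, as the mESC level was 875 without treatment.

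Other groups differed in a few members. Of 15 cell cycle and p53 genes 2 were at least 2-fold higher (3.29% of all genes). Ccnd2, cyclin D2, was at 158, 214 and 47.8 in mESC and at 227.5, 992 and 969 in EpiLC (4.34), and Cdkn1a, the cell cycle inhibitor p21, was at 1369 and 2764 (1.01). Ddit4, a stress-induced inhibitor of mTOR signalling, was at 309 and 2286 (2.89), and with CHIR alone at 355 and 2255 (2.67). It was the single member of 15 amino acid and ER stress genes past 2-fold under both inhibitors, and in the CHIR pair 3 were higher. In the cholesterol list (10 genes, median 0.35) only Cyp51, a sterol demethylase gene, passed 2-fold (590.0 and 1374), and 9 of the 10 differences were above 0, as were 46% of those of all genes. Of 14 glycolysis and hypoxia genes Pfkp, a phosphofructokinase gene, was at 1238 and 161 (-2.94) and Hk1 at 257 and 120 (-1.10), while Vegfa was at 235 and 495 (1.08). The endoderm list (12 genes, median 0.08) and ribosomal protein genes (12 genes, median 0.04) had 0 members past 2-fold. Among 6 genes of the 2-cell-like list Zscan4d was lower (75.9 and 24.4) and the other 5 were less than 2-fold apart. For every list of this paragraph the shares of all genes under both inhibitors were 3.29% higher, 3.11% lower and 93.6% under 2-fold.

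**Figure D3:**
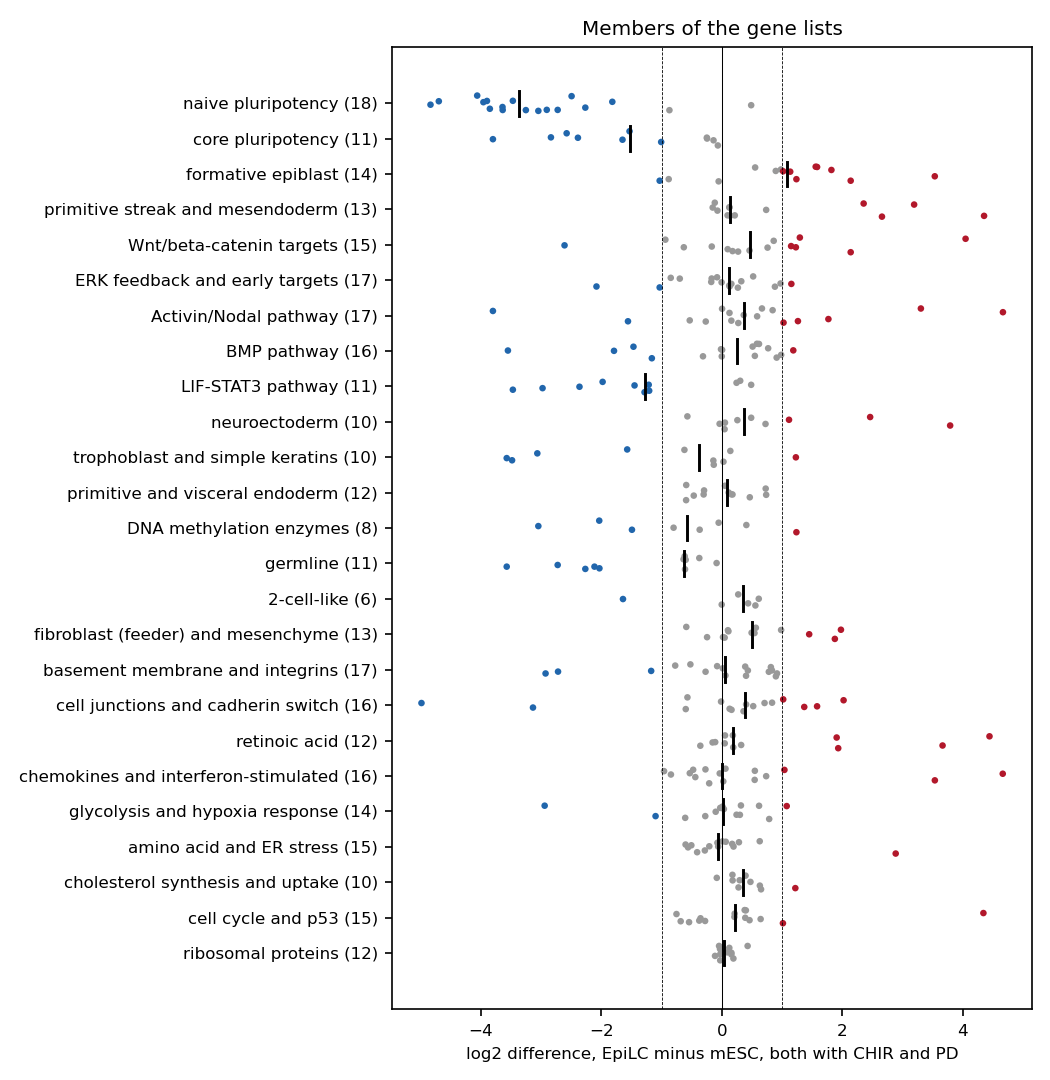
The log2 difference of EpiLC minus mESC under CHIR and PD for each measured member of 25 gene lists, with the number of members in parentheses. Red and blue points are at least 2-fold higher or lower (dashed lines), grey points are not, and black bars are list medians, which run from -3.36 for naive pluripotency to 1.08 for formative epiblast genes.

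Set beside the untreated pair, which shares no array with it, the pair under both inhibitors held a larger set of differences that only partly contained the former. Of 325 genes at least 2-fold higher in untreated EpiLC, 192 were so under CHIR and PD, which is 59.1% of the former and 26.3% of the 729 latter genes. Of 510 lower genes 333 were shared (65.3% of the former and 48.3% of the latter). Under CHIR and PD 145 of the higher and 287 of the lower genes were at least 2-fold apart in all 3 pairs (19.9% and 41.7%), and 349 and 222 in that pair alone (47.9% and 32.2%). Differences across genes correlated with r = 0.592 between the untreated pair and that with CHIR and PD and with r = 0.715 between the CHIR pair and that with both, over 22180 genes that share arrays and are not independent.

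Among genes that entered or left this set and whose difference moved by at least 2-fold, more moved further in EpiLC than in mESC. The same count over all genes was not made. Across all genes the untreated array and that with both inhibitors correlated with r = 0.960 in EpiLC and 0.979 in mESC. Of the 537 genes higher under CHIR and PD but not untreated, the difference had grown by at least 2-fold in 276, and in 214 of these the EpiLC level had moved further from its untreated value than the mESC level had. For the 356 newly lower genes it was 93 of 126. Tdgf1 and Pim1 are examples. S100a13, a calcium-binding protein gene, shows the other kind, since it went from 56.2 to 734 in mESC and from 41.7 to 66.7 in EpiLC. Mobp, a myelin protein gene, likewise went from 201 to 1161 in mESC and from 176 to 158 in EpiLC. Of 133 higher genes that lost their difference, 42 moved by at least 2-fold, 41 of them more in EpiLC, and of 177 lower genes 63, with 41 more in EpiLC. Fgf5 and Eomes are among these, as are Mab21l2 (349 untreated and 39.3 with both in EpiLC) and Fam131b (452 and 60.5).

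**Figure D4:**
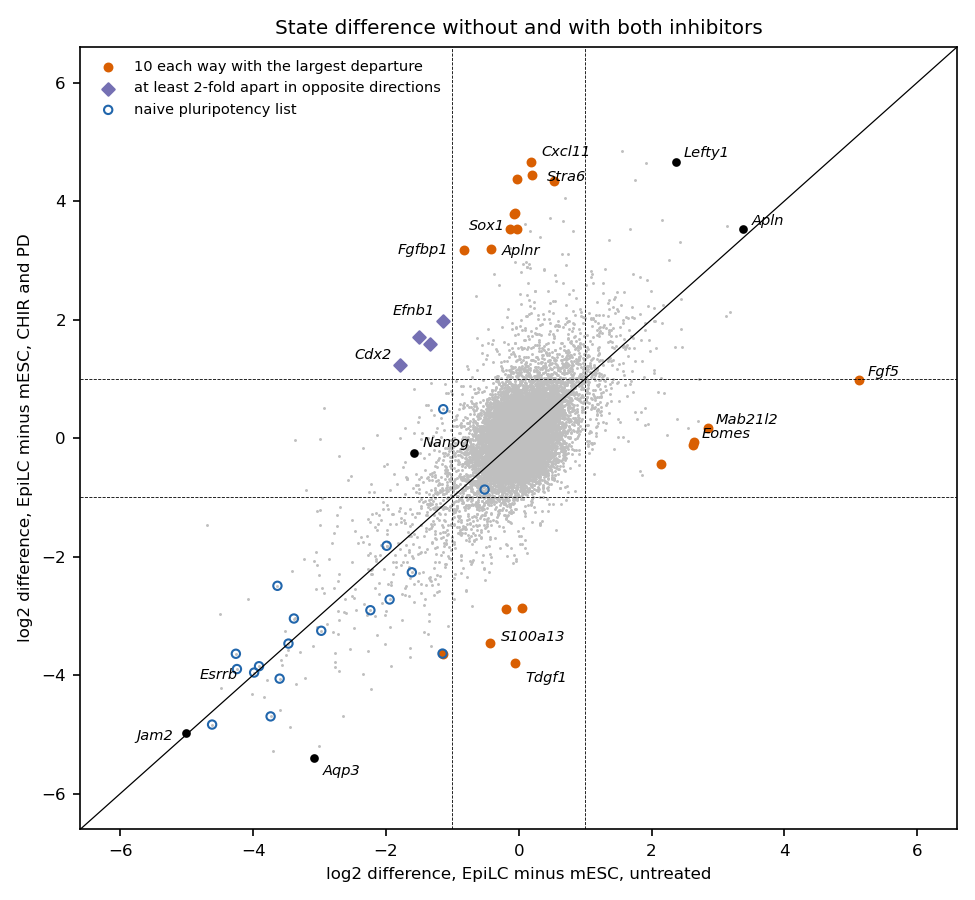
The log2 difference of EpiLC minus mESC in the untreated pair (x) and in the pair with CHIR and PD (y) for 22180 genes, with the line of equality and dashed lines at 2-fold. Most naive genes (open circles) lie near the line at low values, orange points such as Sox1, Fgf5 and Tdgf1 are those with the largest departure between the pairs, 4 genes (diamonds) lie apart in opposite directions, and black points are other genes named in the text.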

How the data were processed

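The authors hybridised total RNA to Affymetrix Mouse Gene 2.0 ST arrays and analysed it in GeneSpring GX 11.5, as the design text of the series states. Deposited values are linear intensities that the authors had normalized. How they did so is not given in the sources used here. Of 33793 probes 23521 carried 1 gene symbol, 1814 several and 8458 none, and those with 1 symbol were used. Log2 intensities were averaged per symbol, giving 22180 genes, 1082 of them with several probes. No filter and no further scaling was applied. Detection calls were not used here, so differences of dim genes are compressed to an unknown extent.

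Differences between 2 arrays were counted at 2-fold or more. State was fitted with CHIR as covariate on the 4 arrays without PD with limma 3.58.1 in R 4.3.3 (lmFit, eBayes, Benjamini-Hochberg over all genes). Simulated arrays with known changes were used to test it, and 100% of 100 genes changed 2-fold and of 100 changed 4-fold were recovered. Their noise had the same size for every gene, and no CHIR response was set to differ between the states. The simulation thus does not show how the fit behaves on these data. Promoters are RefSeq's.

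Members and the 25 lists (339 genes, 312 measured) were chosen with earlier results of these data known. Named genes are the 20 largest differences each way, up to 6 members of each list, the 10 each way that depart most from the untreated pair, the cell type markers, and genes opposite in these pairs; predicted, clone and small RNA symbols were passed over.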

Additional observations from a re-analysis of the deposited data

Results flagged for a closer look

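In 4 genes the states were at least 2-fold apart in opposite directions in the untreated pair and in the pair with CHIR and PD, each on 1 array a side, so the difference between the pairs was not tested. All 4 were lower in EpiLC untreated and higher under both inhibitors. Efnb1, which encodes an ephrin ligand, was at 163 in mESC and 74.1 in EpiLC untreated and at 340 and 1329 with both inhibitors, differences of -1.14 and 1.97. Meis2, a homeobox gene, was at 120 and 42.3 and then at 72.6 and 236 (-1.50 and 1.70). Zfp36l1, which encodes an mRNA decay factor, was at 688 and 272.5 and then at 219 and 659 (-1.34 and 1.59), with 1.45 and 1.73 on its 2 probes in the second pair. Cdx2 differed by -1.79 and 1.23. In the CHIR pair the differences were -0.01 for Efnb1, 1.22 for Meis2, -0.21 for Zfp36l1 and -0.93 for Cdx2.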

How the results depend on the processing

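Among the 195 named genes and the list medians, no difference of at least 2-fold changed sign under the alternatives run. Other genes were not checked for this. Smaller values did, namely 3 list medians (2-cell-like, amino acid and ER stress, chemokine and interferon) and 6 named genes, Dnmt3b, Eomes, Sox17, Zfp352, Rpl4 and Rpl13. Quantile normalization and centring on the median left every summary within its limit (1.5 times for a count, 0.58 for a log2 value); the share of higher genes among those 2-fold apart was 51.4%, 57.8% with centring and 47.5% with a constant of 4. With a constant of 64 in place of 16 the counts became 406 higher and 398 lower genes, the naive median -2.71 and the limma count, 1209 genes, 572. A constant of 4 gave 1175 lower genes and 227 in limma, and leaving out the CHIR covariate gave 361. Among genes above the array median on at least 1 array, the medians of the germline, 2-cell-like and streak lists became -2.11, -0.54 (from 0.35) and 0.74 because fewer members remained. Of 195 named genes 57 moved by over 0.58 with a constant of 64, 17 with a constant of 4 and 2, Etv1 (-2.01) and Hes5 (1.51), with the brightest probe. Leaving out an array was not possible, since it ends the pair, and in the limma fit no degrees of freedom would remain. No paired analysis was possible because each group is 1 array and the labels give no replicate numbers.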
